A study of Mus musculus with 3 samples.

Results

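The apolipoproteins Apoa1, Apoa2, Apoa4, Apob, Apoc1, Apoc2, Apoe, Apom and Apoh and the lipid transfer gene Mttp were followed as 1 list of genes for lipoproteins and their assembly. Every probe set whose only gene symbol in the platform annotation was one of these names was taken, which gave 18 probe sets for 10 genes out of 45037 probe sets and 18193 named genes on the array. The data are 3 Affymetrix expression arrays of 1 colour, and every array carried pooled RNA of whole embryos taken at 8.5 days post coitum (dpc). The normal array held 6 pooled litter mates of mixed sex of the strain C57Bl/6J. The 2 mutant arrays held pools of 8 (mutant 1) and 6 (mutant 2) litter mates of mixed sex that were Dnmt3l-/+ on a C57Bl/6J background. Their dams were Dnmt3l-/- and their sires wildtype. Dnmt3l is a cofactor of the DNA methyltransferases that set maternal imprints in the oocyte, and the embryos kept a wildtype paternal allele. The labels name whole embryo as the tissue and do not say whether the yolk sac and other membranes were removed. The spread between the mutant arrays is therefore that of 2 pools, and the normal group is 1 pool with no replicate.

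Lipoproteins carry cholesterol and triglyceride through body fluids inside a shell of phospholipid and apolipoproteins. Apob is the scaffold of the large triglyceride-rich particles, the microsomal triglyceride transfer protein coded by Mttp loads lipid onto it, and smaller exchangeable apolipoproteins dock onto the surface and steer enzymes and receptors. In the midgestation mouse, before the liver works, the endoderm of the visceral yolk sac takes up maternal nutrients and secretes lipoproteins towards the embryo. Mouse embryos that lack Apob or Mttp die in midgestation with lipid held up in that endoderm.

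All arrays had been scaled to a trimmed mean signal of 500, with median signals of 130 to 144. Actb control probes gave a ratio of the 3' end to the 5' end, a sign of RNA quality, of 1.63 for the normal pool, 1.24 for mutant 1 and 1.43 for mutant 2. The same ratio for Gapdh was 0.930, 0.859 and 1.10. Dnmt3l itself gave a signal of 12.2 in the normal pool, 183 in mutant 1 and 14.3 in mutant 2, too dim for the filter on probe sets. A log2 ratio is the mean of log2(signal + 31.92) over both mutant pools minus that of the normal pool, a scale that understates the change of dim probe sets. They were tested with limma over the 27022 probe sets that passed that filter, with a threshold of 0.05 on the Benjamini-Hochberg adjusted p. Deposited values carry no detection call, so whether a dim probe set lay above background could not be read from them.

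Of the 10 genes, each taken at its brightest probe set, 7 rose in the mutants, none fell and 3 did not pass. Over all 12913 genes tested in that way, 0.728% rose and 0.031% fell. At an unadjusted p under 0.05 (limma), 1034 of the 12913 were higher and 548 were lower. The 7 were Apoa1, Apoa4, Apob, Apoc2, Apoe, Apom and Mttp. Apoa2 and Apoc1 read higher in both mutant pools without passing, and Apoh read lower in both at its brighter probe set. By size alone, 9 of the 10 genes were at least 2-fold higher in both mutant arrays, against 3.24% of all genes tested, and none was 2-fold lower in both (0.635%). Signals were higher in both mutant pools for 9 of the 10 genes (36.5% of all genes) and lower in both for Apoh (39.1%). The median log2 ratio of the 10 genes was 2.78 (2.70 in mutant 1 and 2.74 in mutant 2), and that of all genes tested was -0.02. All 18 probe sets passed the filter, and 13 of them rose, with mutant means 4.30 to 20.03 times the normal signal, and none fell (0.548% of all probe sets rose and 0.0296% fell). At least 2-fold higher in both mutant arrays were 15 of the 18 (2.57% of all probe sets), and none was 2-fold lower in both (1.9%). Both mutant signals exceeded the normal one in 17 of the 18 (32.2%) and were below it in 1 (42.5%).

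**Figure D1:**
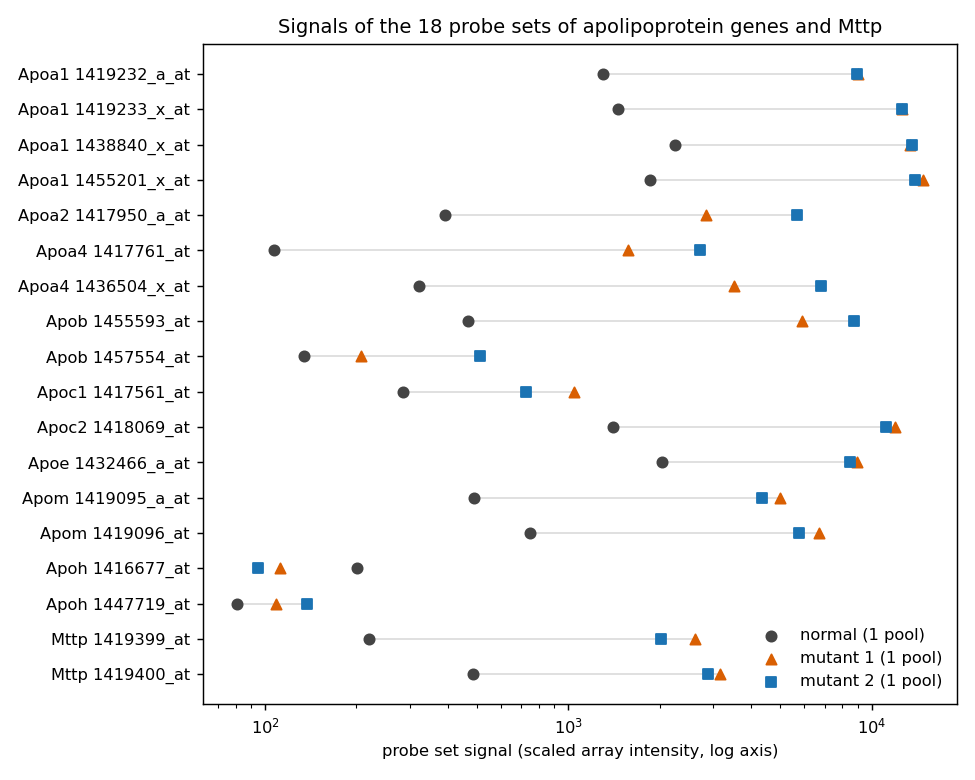
Signal of each of the 18 probe sets (rows) on the normal array and both mutant arrays, on a logarithmic axis of scaled array intensity, with 1 point per pool. In 17 rows both mutant points lie to the right of the normal point, and in the Apoh row 1416677_at both lie to its left.

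Apob, the structural protein of particles rich in triglyceride, rose at its brighter probe set. That probe set (1455593_at) read 468 in the normal pool, 5869 in mutant 1 and 8725 in mutant 2. Both mutant pools were far above the normal one, and the mutant mean of 7297 ± 2020 (SD, n = 2) was 15.6 times the normal signal. The log2 ratio was 3.85 (SE 0.28, adjusted p = 0.0165 by limma). A dimmer Apob probe set (1457554_at) read 135 in the normal pool and 208 and 512 in mutants 1 and 2. The direction was the same with a smaller log2 ratio of 1.11 (SE 0.52, adjusted p = 0.434), and the mean of both probe sets gave 2.48.

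Mttp, which codes for the large subunit of the protein that lipidates Apob in the endoplasmic reticulum, rose at both of its probe sets. Probe set 1419399_at read 220 in the normal pool and 2621 and 2026 in mutants 1 and 2. Probe set 1419400_at read 483 in the normal pool and 3158 and 2879 in the mutants. Both mutant pools lay well above the normal pool at each probe set. The log2 difference of mutant 2 minus mutant 1 was -0.37 at 1419399_at and -0.13 at 1419400_at. The log2 ratios to normal were 3.21 (SE 0.26) and 2.56 (SE 0.21), each with an adjusted p of 0.0187. P4hb, which codes for the other subunit of the same transfer protein and is also a general folding enzyme, read 12940 in the normal pool and 14142 and 12890 in the mutants. Its log2 ratio was 0.06 (SE 0.14, adjusted p = 0.886), and it is named here although its value was seen first.

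Apoa1, the main protein of high-density lipoprotein, was measured by 4 probe sets that gave nearly the same answer. On the normal array they read between 1302 and 2247, and on the mutant arrays between 8917 and 14775. No mutant value came near a normal one, and the log2 ratios ran from 2.57 to 3.09, each with an adjusted p of 0.0111. The probe set 1419233_x_at read 1457 in the normal pool against 12600 and 12616 in the mutants. Of the 4 probe sets, 3 carry the _x_at ending, which Affymetrix gives to probe sets with probes that may also bind other transcripts.

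Apoa4, an apolipoprotein of triglyceride-rich and high-density particles, had a larger log2 ratio than Apoa1 and a wider gap between the mutant pools. Probe set 1417761_at read 107 in the normal pool, 1568 in mutant 1 and 2717 in mutant 2. The log2 ratio was 3.92 (SE 0.37, adjusted p = 0.0282), and the mutant mean was 20.03 times the normal signal. The other probe set (1436504_x_at) read 323, 3520 and 6780 in the same order, and its log2 ratio was 3.79 (SE 0.40, adjusted p = 0.0352). Apoa2, another main protein of high-density lipoprotein, also read higher in mutant 2 than in mutant 1. It read 391 in the normal pool, 2838 in mutant 1 and 5681 in mutant 2, and the mutant mean was 10.9 times the normal signal. With 2.00 times more signal in mutant 2 than in mutant 1, its log2 ratio of 3.26 had an SE of 0.42 and did not pass (adjusted p = 0.0557).

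Apoc2, Apoc1 and Apoe belong to 1 gene cluster on chromosome 7. Apoc2, the cofactor that activates lipoprotein lipase, read 1406 in the normal pool and 11943 and 11160 in the mutants. The mutant values agreed closely, and its log2 ratio was 3.01 (SE 0.16, adjusted p = 0.0111). Apoe, the ligand through which remnant particles bind receptors of the low-density lipoprotein receptor family, read 2029 in the normal pool and 8962 and 8501 in the mutants. Apoe rose, and its log2 ratio (2.09, SE 0.16, adjusted p = 0.0183) was the smallest among the 7 genes that passed. Apoc1, an exchangeable apolipoprotein that slows lipolysis and receptor uptake, read 285 in the normal pool and 1045 and 725 in the mutants. Both mutant pools read higher, but the log2 ratio of 1.51 (SE 0.31) did not pass (adjusted p = 0.142).

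Apom, a lipocalin that carries sphingosine 1-phosphate on high-density lipoprotein, rose at both probe sets. Probe set 1419095_a_at read 490 in the normal pool and 4981 and 4361 in the mutants, and 1419096_at read 746, 6708 and 5749. Their log2 ratios were 3.17 (SE 0.20, adjusted p = 0.0120) and 3.00 (SE 0.20, adjusted p = 0.0124). Apoh, also called beta-2-glycoprotein I, binds anionic phospholipids and is a plasma protein of the liver rather than a particle builder. Its probe set 1416677_at read 201 in the normal pool and 112 and 94.6 in the mutants, and its log2 ratio was -0.79 (SE 0.34, adjusted p = 0.394). The dimmer probe set 1447719_at had the opposite sign, with 80.8 in the normal pool, 108 and 137 in the mutants and a log2 ratio of 0.45 (SE 0.36, adjusted p = 0.642). Neither passed, and the mean of both probe sets gave -0.17. In the mutants 1447719_at had the higher mean signal (123 against 103), so 1416677_at was the brighter one through the normal pool. Apoh was the only member of the 10 with a log2 ratio below 0 at its brightest probe set.

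**Figure D2:**
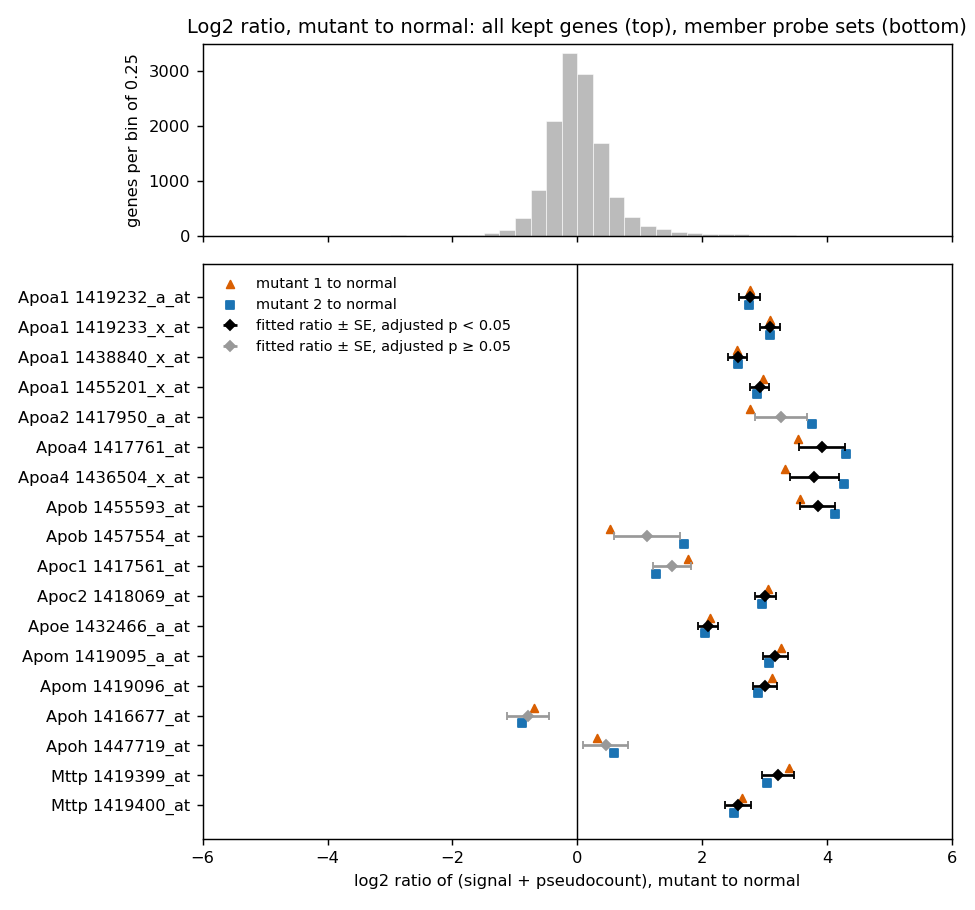
Top, number of genes per 0.25 bin of log2 ratio for all 12913 genes tested; bottom, the log2 ratio to normal of each of the 18 probe sets in mutant 1 (triangles), mutant 2 (squares) and in the limma fit (diamonds, bars are SE, black where the adjusted p was under 0.05). The 13 black diamonds lie between 2.09 and 3.92, and the genes in the top panel centre near 0.

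The calls did not hold under every setting of the limma fit. With no filter on dim probe sets, or with moderated variances not fitted to signal, none of the 10 genes passed (limma), while 9 had an unadjusted p under 0.05 in each case. At that level 2423 of 45037 probe sets were higher without the filter and 1641 of 27022 without that fit to signal.

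Promoter sequences of 9 of the 10 genes were held in the RefSeq promoter table (build GRCm38.p6, 250 bases before to 50 after the start), and Apoc1 was the exception. Those of Apob, Apoa4 and Apoh are shown because the same searched motif occurred in each. Apob and Apoa4 were the 2 genes with the largest log2 ratios, and Apoh read lower at its brighter probe set only. Capitals mark matches, on either strand, to CAAAGNNCA (the core bound by HNF4, the nuclear receptor of endoderm), AGGTCA (the half-site of nuclear receptors), GTTAAT (a half-site of HNF1), AGATAA (bound by GATA factors) and TATAAA (the TATA box). The searched motifs may overlap one another, and capitals then mark the joined stretch. The sequences run 5′ to 3′ on the strand of the gene.
Apob, chr12:7977427-7977726, plus strand: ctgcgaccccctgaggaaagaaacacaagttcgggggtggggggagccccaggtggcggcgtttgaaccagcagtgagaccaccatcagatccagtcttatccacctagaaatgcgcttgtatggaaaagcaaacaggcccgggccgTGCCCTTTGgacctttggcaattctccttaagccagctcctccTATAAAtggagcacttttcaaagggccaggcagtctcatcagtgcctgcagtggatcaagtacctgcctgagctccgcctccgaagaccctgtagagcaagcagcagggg
Apoa4, chr9:46240594-46240893, plus strand: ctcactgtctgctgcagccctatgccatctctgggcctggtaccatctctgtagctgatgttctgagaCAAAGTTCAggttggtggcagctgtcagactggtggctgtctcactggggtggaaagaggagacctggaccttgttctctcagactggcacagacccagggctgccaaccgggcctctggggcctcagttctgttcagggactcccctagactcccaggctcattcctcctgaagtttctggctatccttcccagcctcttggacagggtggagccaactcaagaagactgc
Apoh, chr11:108395047-108395346, plus strand: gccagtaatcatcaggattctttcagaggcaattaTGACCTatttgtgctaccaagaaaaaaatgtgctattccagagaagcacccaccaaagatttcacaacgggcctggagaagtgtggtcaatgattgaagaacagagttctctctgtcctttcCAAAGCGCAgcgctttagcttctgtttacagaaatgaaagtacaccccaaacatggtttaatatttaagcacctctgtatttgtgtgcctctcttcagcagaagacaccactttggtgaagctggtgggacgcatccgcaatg

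The HNF4 core occurred in the promoters of 3 of the 9 genes (Apoa4, Apob and Apoh) and in 6.36% of all 32851 promoter windows in the table. In the Apoa4 promoter it lay 182 bases before the start and read CAAAGTTCA. The Apob match lay 103 to 95 bases before the start on the opposite strand, as TGCCCTTTG, and the TATA box match 60 to 55 bases before it. The Apoh match, CAAAGCGCA, lay 93 to 85 bases before the start. AGGTCA occurred for 3 genes (Apoa2, Apoc2 and Apoh, against 16.3% of windows), GTTAAT for Apoc2 and Apoe (7.10%), TATAAA for 3 genes (Apoa2, Apob and Apoe, 13.6%) and AGATAA for none (11.2%). Apoe had 3 starts and Apoa2 had 2 in the table, and a gene was counted where any of its windows matched. A match in these letters is a description of the window and not a measured binding site.

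Several of the genes are neighbours, which allowed genes of the same chromosomal stretch to be compared. Apoe, Apoc1, Apoc4 and Apoc2 lie in a row on chromosome 7, and Apoa1, Apoc3, Apoa4 and Apoa5 in a row on chromosome 9. Apoc4 was measured but had no probe set that passed the filter. Of the 9 listed genes flanking the Apoe row, 6 passed the filter, their median log2 ratio was -0.13 and none passed the limma threshold (none with an unadjusted p under 0.05 either). Tomm40, a mitochondrial import channel gene next to Apoe, read 2836 in the normal pool and 3358 and 1945 in the mutants. Clptm1, on the far side of Apoc2, read 3149 in the normal pool and 3267 and 2945 in the mutants. The mutant values of both genes lay on either side of the normal one.

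All 9 listed flanking genes of the Apoa1 row passed the filter, with a median log2 ratio of -0.02. None passed the limma threshold, and at an unadjusted p under 0.05 2 were lower and none higher. The kinase gene Sik3, next to Apoa1, had a log2 ratio of 0.20 (SE 0.23), and Zpr1, next to Apoa5, had 0.05 (SE 0.22). Within the Apoa1 row, Apoc3, an inhibitor of lipoprotein lipase, read 131 in the normal pool and 545 and 383 in the mutants. Apoa5, which promotes lipolysis, read 174 in the normal pool and 342 and 446 in the mutants. Neither passed (log2 ratios 1.59 and 1.04, adjusted p = 0.145 and 0.251), although both mutant pools read above the normal pool in each case. Among the other genes up to 15 protein coding genes from Apoe or Apoa1 on either side, 14 and 18 passed the filter, none near Apoe passed limma, and 2 there had an unadjusted p under 0.05, both higher. Near Apoa1 only Fxyd2, a subunit of the sodium pump singled out after its value was seen, passed (log2 ratio 2.35, SE 0.29, adjusted p = 0.0495).

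**Figure D3:**
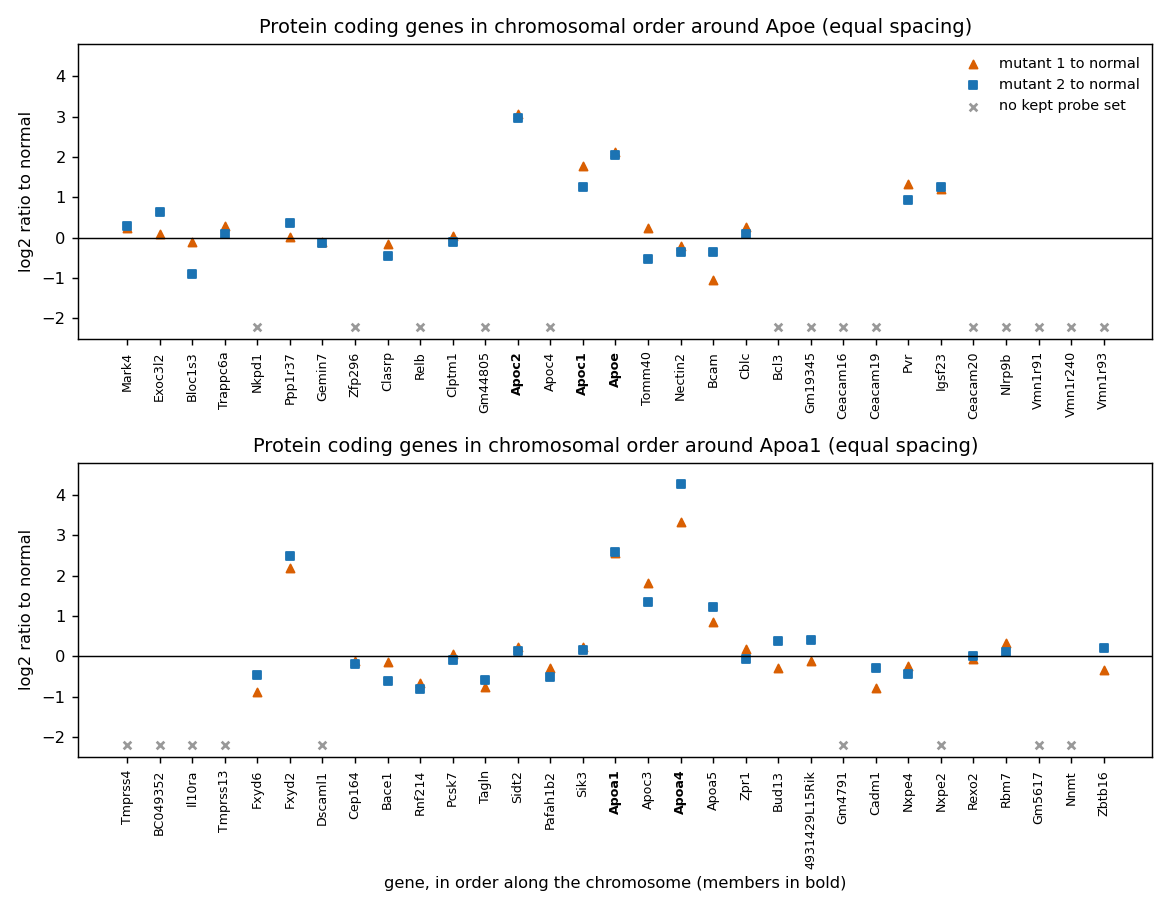
Log2 ratio to normal in mutant 1 (triangles) and mutant 2 (squares) for the protein coding genes around Apoe (top) and Apoa1 (bottom), in chromosomal order at equal spacing, with crosses for genes that had no kept probe set. Apoc2, Apoc1 and Apoe, and Apoa1 and Apoa4 with Apoc3 and Apoa5 between and beside them, lie above the nearest genes on either side, and genes further out lie on both sides of 0, with Fxyd2 the highest of them.

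The mutant pools differed from each other at some of these genes and not at others. Over all probe sets tested, the median absolute log2 difference between the mutant pools was 0.24 and the 95th percentile was 0.97. Apoa2 (0.99) and the dimmer Apob probe set (1.18) lay beyond that percentile, both higher in mutant 2. The 2 Apoa4 probe sets (0.78 and 0.94) and the brighter Apob probe set (0.57) were higher in mutant 2 as well. At the 4 Apoa1 probe sets the mutant pools differed by 0.09 or less. Apoc1 (-0.51) and the Mttp probe set 1419399_at (-0.37) were higher in mutant 1. In all, 8 of the 18 probe sets were higher in mutant 2 and 10 were higher in mutant 1.

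**Figure D4:**
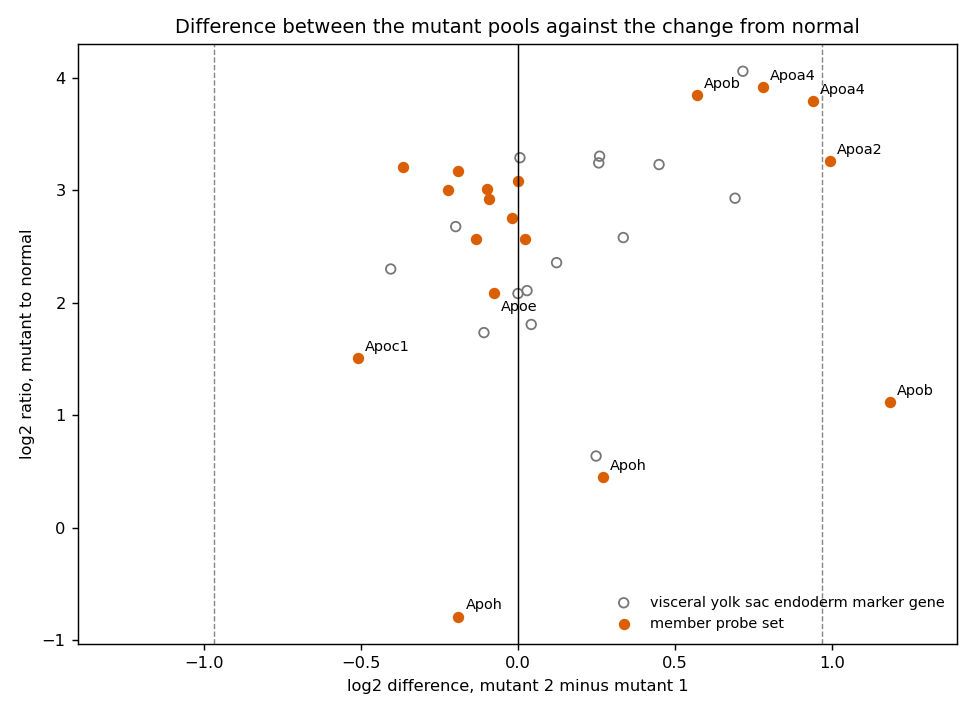
Log2 ratio of the mutants to normal (vertical axis) against the log2 difference between mutant 2 and mutant 1 (horizontal axis) for the 18 probe sets (filled) and 15 marker genes of visceral yolk sac endoderm (open). Dashed lines mark a difference of 0.97 in either direction, the 95th percentile of its absolute value over all probe sets tested; Apoa2 and the dimmer Apob probe set lie beyond the right-hand line.

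Markers of visceral yolk sac endoderm that are not apolipoproteins were higher in the same arrays. Of 16 listed markers 15 passed the filter, and 14 of these rose, against 0.728% of all genes tested. Npc1l1 was the exception (log2 ratio 0.64, adjusted p = 0.476). The list was chosen with earlier results of these data known, so its count has no weight as separate support. The median log2 ratio of the 15 markers was 2.58, with a range of 0.64 to 4.06. Of the 10 lipoprotein genes 9 lay inside that wide range, with Apoh below it. Npc1l1 alone set its lower end, and the next lowest marker was Ttr (1.74), which is above Apoc1 (1.51). The summed signal of the 15 markers was 20762 in the normal pool and 104985 and 106471 in mutants 1 and 2. That sum was 5.06 and 5.13 times the normal one, and the summed signal of the 10 lipoprotein genes was 6.70 and 7.44 times the normal one. Bright genes weigh most in such sums, and by log2 ratio 5 of the 10 genes lay above the marker median. Afp, the main fetal plasma protein, read 4128 in the normal pool and 14329 and 14758 in the mutants, and Rbp4, the retinol carrier of plasma, read 2746, 19018 and 16573. In the normal pool the 15 markers read from 112 (Npc1l1) and 118 (Fgb), below the array median, to 5888 (Ttr). Without detection calls, whether the dimmest of them lay above background there could not be read. The part of such endoderm in the pools in these results was not tested, and in bulk RNA more cells of a type and more RNA per cell cannot be told apart.

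Other sources of apolipoprotein RNA were checked by their own markers. Hepatocytes make most of these proteins later, and of 10 liver markers 5 passed the filter with a median log2 ratio of 0.38. None passed the limma threshold, and 1 (Serpina1b) had an unadjusted p under 0.05. Alb, the albumin gene, read 159 in the normal pool and 65.2 and 97.4 in the mutants, and Serpina1b, a protease inhibitor of plasma, read 8.60, 197 and 585. The summed signal of these 5 markers was 1053 in the normal pool and 1382 and 1907 in the mutants. Macrophages are a known source of Apoe, and of 10 macrophage markers 6 passed the filter, with a median log2 ratio of 0.12 and summed signals of 1120, 1417 and 1674. None passed, and 1 had an unadjusted p under 0.05, the mannose receptor gene Mrc1 (149 in the normal pool and 477 and 564 in the mutants). The 7 gut endoderm markers kept had a median log2 ratio of 0.33, none passed and 1 had an unadjusted p under 0.05. Trophoblast markers had a median of 2.25 over the 5 genes kept of 10 listed. Of these 5, 3 rose, and all 5 were at least 2-fold higher in both mutant arrays. Primitive erythroid markers had a median of 1.97 over the 8 genes kept of 10 listed. Of these 8, 2 rose, and 6 were at least 2-fold higher in both mutant arrays. All 5 trophoblast and all 8 erythroid genes were higher with an unadjusted p under 0.05 (limma). The 8 parietal endoderm markers had a median of 0.58 with none passing (2 with an unadjusted p under 0.05). The 6 decidua markers had a median of -0.46, and Prl8a2 was the gene among them that passed. It read 1376 in the normal pool and 91.2 and 111 in the mutants (log2 ratio -3.41, SE 0.30, adjusted p = 0.0212 by limma). Whether the normal pool held more decidua than the mutant pools was not tested. The 28 heart, neural, somite and tailbud markers kept, which stand for tissues of the embryo itself, had a median of -0.81 and none passed. At an unadjusted p under 0.05 (limma), 13 of the 28 were lower and none was higher. Of all 12913 genes tested, 548 were lower and 1034 higher at that level. The part of these tissues in the lipoprotein results was not tested.

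**Figure D5:**
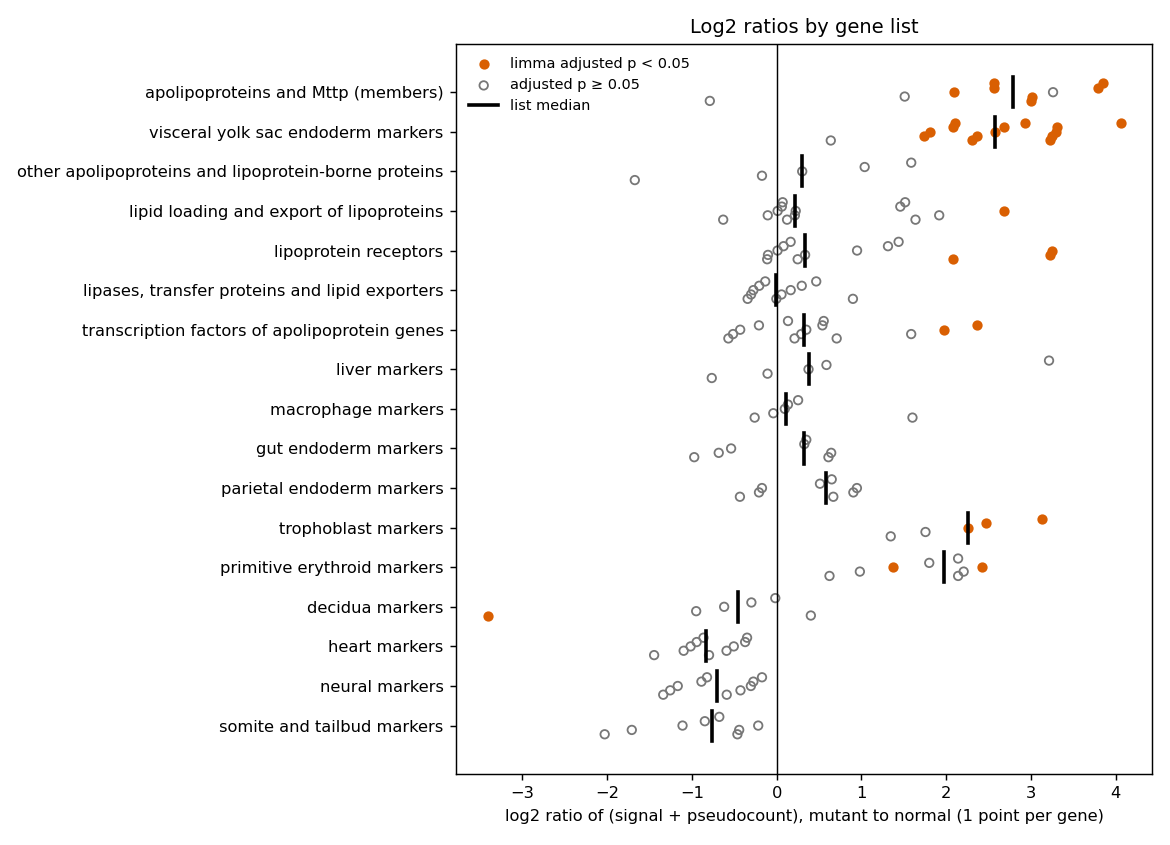
Log2 ratio of the mutants to normal for each kept gene of 17 lists, with filled points for an adjusted p under 0.05 by limma, open points for the rest and a bar at each list's median. The lipoprotein genes (median 2.78) and the visceral yolk sac endoderm markers (2.58) lie farthest to the right, followed by trophoblast (2.25) and primitive erythroid markers (1.97), and heart, neural and somite markers lie to the left of 0.

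The remaining steps of lipoprotein metabolism were described by 5 further lists, of which 56 different genes passed the filter. Of these 56, 6 rose and none fell, against 0.728% and 0.031% of all genes tested, and their median log2 ratio was 0.22. Among the 6, Cubn, Amn, Dab2 and Hnf4a are also on the yolk sac endoderm list. Among proteins that load lipid or move particles out of the cell, 1 of 13 rose. Pla2g12b, a secreted protein needed in mouse liver for lipid loading of Apob particles, read 264 in the normal pool and 1956 and 1786 in the mutants (log2 ratio 2.68, SE 0.23, adjusted p = 0.02004). The triglyceride synthesis enzyme gene Dgat2 (log2 ratio 1.46), Cideb (1.52) and the fatty acid binding protein genes Fabp1 (1.64) and Fabp2 (1.92) read higher in both mutant pools without passing. General genes of secretion on the same list, namely P4hb, Sar1b, Mia3, Surf4, Lman1 and Mcfd2, had log2 ratios from -0.10 to 0.22. They were picked with their values known, so that range describes these genes and not secretion genes in general.

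Of 13 receptors and their partners, 3 rose. They were Cubn and Amn, which form the receptor that takes up high-density lipoprotein and vitamin B12 carriers (log2 ratios 3.24 and 3.23), and the clathrin adaptor Dab2 (2.08), and all 3 are also on the yolk sac endoderm list. Cubn read 1238 in the normal pool and 10977 and 13129 in the mutants. Lrp2, the partner receptor megalin, had a log2 ratio of 1.44 (adjusted p = 0.0793), and the high-density lipoprotein receptor gene Scarb1 had 1.31 (adjusted p = 0.0886). The remnant receptor gene Lrp1, named after its value was seen, read 1008 in the normal pool and 1015 and 1017 in the mutants, the smallest absolute log2 ratio (0.01) of the 13 genes on the list.

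Lipases, transfer proteins and lipid exporters gave a median log2 ratio of -0.00329 over 11 genes, and none passed (1 with an unadjusted p under 0.05). Lcat, the enzyme that esterifies cholesterol on high-density lipoprotein, was that gene, with 74.2 in the normal pool and 147 and 187 in the mutants. The sign of a median so close to 0 has no weight, and the scaling of the arrays moved the median of all genes tested from -0.02 to between 0.00 and 0.06. Other apolipoproteins and particle-borne proteins had 5 genes kept and none passing, with 2 higher and 1 lower at an unadjusted p under 0.05. The lower one was Apod, a lipocalin, which read 241 in the normal pool and 84.4 and 30.9 in the mutants (log2 ratio -1.67, adjusted p = 0.244).

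Among 14 transcription factors known to act on apolipoprotein genes, 2 rose. Hnf4a, the nuclear receptor of endoderm, read 319 in the normal pool and 1690 and 1844 in the mutants (log2 ratio 2.36, SE 0.23, adjusted p = 0.0296). Hnf4a is also on the yolk sac endoderm list and was counted there. Creb3l3, a membrane-bound factor that in mouse liver acts on apolipoprotein genes, read 268, 1154 and 1136 (log2 ratio 1.97, SE 0.24, adjusted p = 0.0486). Cebpb read 231 in the normal pool and 762 and 753 in the mutants and did not pass (log2 ratio 1.59, adjusted p = 0.0885). The retinoid X receptor gene Rxra, a partner of many nuclear receptors, read 741, 537 and 546 (log2 ratio -0.43, adjusted p = 0.517). The median log2 ratio over the 14 factors was 0.32.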

How the data were processed

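The authors deposited 1 linear intensity signal for each probe set of an array, made with GCOS and MAS5 per the submitters' processing notes. Trimmed means are equal between the arrays, which were thus scaled, and such scaling lets a change in tissue makeup move other genes the opposite way. After 64 Affymetrix controls were left out, the pseudocount was set to 31.92, the median of the arrays' 20th percentiles. Probe sets at or above the 40th percentile of mean log2(signal + 31.92), with both groups weighted equally, were kept. Limma (version 3.58.1 in R 4.3.3, lmFit and eBayes with a trend, two-sided) was fitted to all 3 arrays, with 1 residual and 4.52 prior degrees of freedom, so the lone normal array takes its spread from the mutants. All adjusted p-values come from that fit. The number of arrays limits the precision.

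Genes were named from the platform annotation, and the RefSeq gene table (GRCm38.p6) gave the order of genes and changed 0 symbols. No member had a probe set shared with another symbol. No genome build is named in the files, so coordinates are given for the RefSeq promoters alone. A gene is read at its brightest kept probe set. The members and lists were chosen with earlier results of these data known. Named genes were all members and, of each other list, those that passed and up to 4 more by the smaller of the mutant ratios, and any gene of the lists of chromosomal neighbours. P4hb, the other secretion genes, Lrp1 and Fxyd2 fall outside that rule and were picked with their values known.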

Additional observations from a re-analysis of the deposited data

How the results depend on the processing

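The median log2 ratio of the 10 genes was 2.81 with a pseudocount 0.5 times as large, 2.75 with double and 2.83 with one 0.25 times as large, and 3.00 with the stricter filter, which dropped Apoh. It was 2.86 with median centring, 2.81 with cyclic loess, 2.86 with the mean of a gene's probe sets and 3.00 over the 7 genes left without _x_at, _s_at and _a_at probe sets. Without mutant replicate 2 it was 2.70 and without mutant replicate 1 it was 2.74, values with no test. The count of genes that rose was 0 without the filter and 0 without the trend, against 7, and the 6 genes that rose on the related lists also became 0 under both. Over the whole array 148 higher and 8 lower probe sets became 0 and 0 under both. At an unadjusted p under 0.05 they were 2423 and 2451 without the filter and 1641 and 1814 without the trend. Median centring gave 263 higher and 24 lower probe sets, and 8 of the 10 genes, with Apoa2 added (adjusted p = 0.0229). The mean of a gene's probe sets gave 9 of the 10 genes, with Apoa2 (adjusted p = 0.00780) and Apoc1 (0.0432) added. On the related lists it gave 10 genes, against 6. The share of all genes that rose was not counted under that setting, so the 9 cannot be set against it. The median log2 ratio of the related lists was 0.33 without mutant replicate 1 and 0.20 without mutant replicate 2. The cause of these shifts was not tested. No log2 ratio of the 18 probe sets changed sign under any alternative. No paired analysis was possible because the normal group has 1 array. The file gives no detection calls, so limits on dim probe sets such as those of Apoh could not be set.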
